A study of Mus musculus with 9 samples.

Results

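The 35 genes described here serve glycolysis, lactate handling and the response to low oxygen, and they were taken by symbol from a table of 24930 gene symbols measured in mouse intestinal crypt epithelium. All 35 were found in the table. Rows were matched by gene name alone, but the list of names was drawn up with earlier results of these data known. Of the 35 genes, 33 reached at least 1 FPKM (a fragment count corrected for transcript length and for library depth) in at least 3 libraries and were tested, among 12097 such genes. Ldhb and P4ha1 did not reach that level. Adm reached it only through mutant libraries, so its presence among the tested genes already depends on its higher level there, and counts are also given without it.

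The series compared control crypts with crypts in which 1 mutant copy of Ctnnb1 (it encodes β-catenin, the effector of Wnt signalling) had been switched on in vivo. Control, mutant set A and mutant set B each held 1 library of day 8, 1 of day 9 and 1 of day 10 after induction, so 9 libraries in all. Titles call set A Bcathet and set B Cdx2het_Bcathet, whereas library names put CDX2HET and EXON3 on set A and EXON3 alone on set B. Which set carries the Cdx2 allele is therefore contradictory in the labels, and directions between sets are given for the libraries as titled. For the control genotype, the strain, the age and the Cre driver, the sources used here give nothing. The labels do not say that the libraries came from separate animals. Libraries of a group were of different days, so every p-value reflects library-to-library spread that includes the day. How much of that spread lies between animals and how much is technical cannot be told.

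Glycolysis splits glucose into pyruvate in the cytosol, and lactate dehydrogenase turns pyruvate into lactate, which leaves the cell through monocarboxylate transporters. The hypoxia-inducible factors (HIFs) are transcription factors whose alpha subunits are hydroxylated and destroyed while oxygen is plentiful. When they persist they bind a short DNA core and switch on glucose transporters, glycolytic enzymes and secreted factors such as VEGF-A. In the gut, oxygen falls from the crypt base towards the lumen, and the epithelium is known for its low resting oxygen tension.

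Summed FPKM ran from 624923 to 755802 per library. A rough estimate put 1 FPKM at 16.7 to 19.0 fragments per kilobase. It is the inverse of a median of low values, corrected for length, within a preset window. That window bounds the estimate, so it is not a measured depth. Set B day 9 stood apart: on the leading principal component, with 43.5% of the variance, it lay at −19.1, near the controls at −22.7 to −21.6, while the other 5 mutant libraries lay at 2.57 to 30.0. Its Xist level was 0.1 FPKM and its Y-linked genes summed to 41.7, against 27.0 to 39.4 and at most 0.047 elsewhere. This library therefore reads as male and the others as female, so it came from a different animal. Its sex cannot be told apart from its other differences. Calls are therefore given with and without it. Leaving out a mutant library because it lies near the controls favours larger differences between groups. Calls made without it are therefore not separate support. The 6 epithelial markers summed to 3539 to 4184 FPKM in control and 3612 to 4215 in the mutants, and the tissue label matched them. Endothelial markers summed to 2.60 to 2.79 in control and 3.00 to 5.62 in the mutants, low but without overlap, with Kdr at no more than 0.0175. Only 1 of these 8 markers was tested. It differed by 0.42 on the log2 scale, with an unadjusted p below 0.05 in limma, and did not pass after adjustment. Ctnnb1 itself read 207, 193 and 187 FPKM in control and 211 to 239 in the mutants (adjusted p = 0.126, limma). Cdx2 read 108 to 139 FPKM in control, 126 to 144 in set A and 178 to 196 in set B, so neither set lay below control, and these levels do not settle which set carries the allele.

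The stretch of 250 bases before a gene start was read from RefSeq's promoter table (build GRCm38.p6) for 33 of the 35 genes. Epas1 and Ndrg1 had no entry. The submitters' processing notes name mm9, so these positions are those of RefSeq's build and not of the deposited values. The 6 windows shown hold no annotated exon and were picked because they belong to genes on which the results turn: Vegfa, Hk2 and Aldoa, which read high in most mutant libraries, Slc16a1 and Pdk2, which read low, and Ldha, which overlapped between groups. Capitals mark the HIF-binding core ACGTG or GCGTG on either strand, printed as CACGT or CACGC where it lies on the other strand, and CACGTG holds the core on both strands.
Vegfa, chr17:46032378-46032627, minus strand: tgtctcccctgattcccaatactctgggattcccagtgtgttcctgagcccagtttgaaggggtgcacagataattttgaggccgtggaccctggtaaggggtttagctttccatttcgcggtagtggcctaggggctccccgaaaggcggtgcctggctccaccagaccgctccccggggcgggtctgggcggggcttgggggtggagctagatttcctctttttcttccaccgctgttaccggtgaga
Hk2, chr6:82774455-82774704, minus strand: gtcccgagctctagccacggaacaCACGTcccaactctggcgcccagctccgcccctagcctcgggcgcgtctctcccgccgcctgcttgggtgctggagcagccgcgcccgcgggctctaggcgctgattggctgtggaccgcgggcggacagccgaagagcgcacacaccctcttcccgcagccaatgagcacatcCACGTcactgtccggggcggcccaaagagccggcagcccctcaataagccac
Aldoa, chr7:126799255-126799504, minus strand: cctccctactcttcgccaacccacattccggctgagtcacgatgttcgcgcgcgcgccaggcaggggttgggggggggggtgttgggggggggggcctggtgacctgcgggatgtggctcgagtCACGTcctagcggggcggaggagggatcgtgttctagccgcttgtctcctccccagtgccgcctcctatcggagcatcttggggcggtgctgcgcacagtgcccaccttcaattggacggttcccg
Slc16a1, chr3:104638414-104638663, plus strand: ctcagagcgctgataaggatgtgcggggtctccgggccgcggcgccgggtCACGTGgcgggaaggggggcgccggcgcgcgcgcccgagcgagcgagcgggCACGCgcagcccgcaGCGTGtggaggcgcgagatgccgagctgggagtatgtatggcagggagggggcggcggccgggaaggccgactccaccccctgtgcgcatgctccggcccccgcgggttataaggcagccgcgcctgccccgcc
Pdk2, chr11:95041372-95041621, minus strand: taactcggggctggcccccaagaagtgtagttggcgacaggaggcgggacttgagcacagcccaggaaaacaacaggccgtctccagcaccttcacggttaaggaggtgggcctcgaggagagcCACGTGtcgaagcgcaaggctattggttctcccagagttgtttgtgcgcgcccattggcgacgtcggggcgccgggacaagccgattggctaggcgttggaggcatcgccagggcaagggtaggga
Ldha, chr7:46845554-46845803, plus strand: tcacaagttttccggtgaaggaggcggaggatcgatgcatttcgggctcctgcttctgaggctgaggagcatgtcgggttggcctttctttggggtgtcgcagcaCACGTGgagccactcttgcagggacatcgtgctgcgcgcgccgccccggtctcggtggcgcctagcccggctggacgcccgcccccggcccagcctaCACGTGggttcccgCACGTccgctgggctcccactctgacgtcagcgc
The window of Vegfa before this start held no core, while one before another listed start, inside the gene, held 2. Of the others, that of Hk2 held 2, that of Aldoa 1, that of Slc16a1 4, that of Pdk2 2 and that of Ldha 5. Each CACGTG counts here as 2, 1 per strand, so these are not numbers of separate sites. Of the 33 genes with an entry, 21 (63.6%) had ACGTG and 30 (90.9%) had ACGTG or GCGTG before at least 1 listed start. Among the 9454 tested genes with an entry the shares were 25.2% and 61.4%. Genes with several listed starts had more chances: counted per start, ACGTG stood in 51.1% of 47 windows of these genes and in 21.7% of 11975 windows of tested genes. Median GC content was 62.8% against 59.6%. The core therefore stood before genes that read higher in the mutants and before genes that read lower, and a match of letters describes the window only.

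With both mutant sets against control, 1 of the 33 genes passed limma's test with Benjamini-Hochberg adjustment over all 12097 genes at 0.05. It was Vegfa, which rose, and 1.16% of all tested genes passed in either direction. Without set B day 9, 8 of the 33 passed, against 8.22% of all genes: Vegfa, Ankrd37, Slc2a1, Pfkfb3, Car9, Aldoa and Adm rose and Pdk2 fell. Leaving Adm aside, that is 7 of 32. At an unadjusted p below 0.05 with all 9 libraries there were 12 of the 33 (36.4%), Adm among them, against 21.0% of all genes. The fold change was above 0 for 26 of the 33 genes (78.8%) and for 49.7% of all genes, with a median of 0.18 on the log2 scale against −0.0017. Without Adm it was above 0 for 25 of 32 (78.1%), with a median of 0.18. Each fold change is a difference of mean log2(FPKM + 1), given with its standard error, and understates the change of low genes. In bulk tissue, fewer cells of a type and less RNA per cell cannot be told apart.

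**Figure D1:**
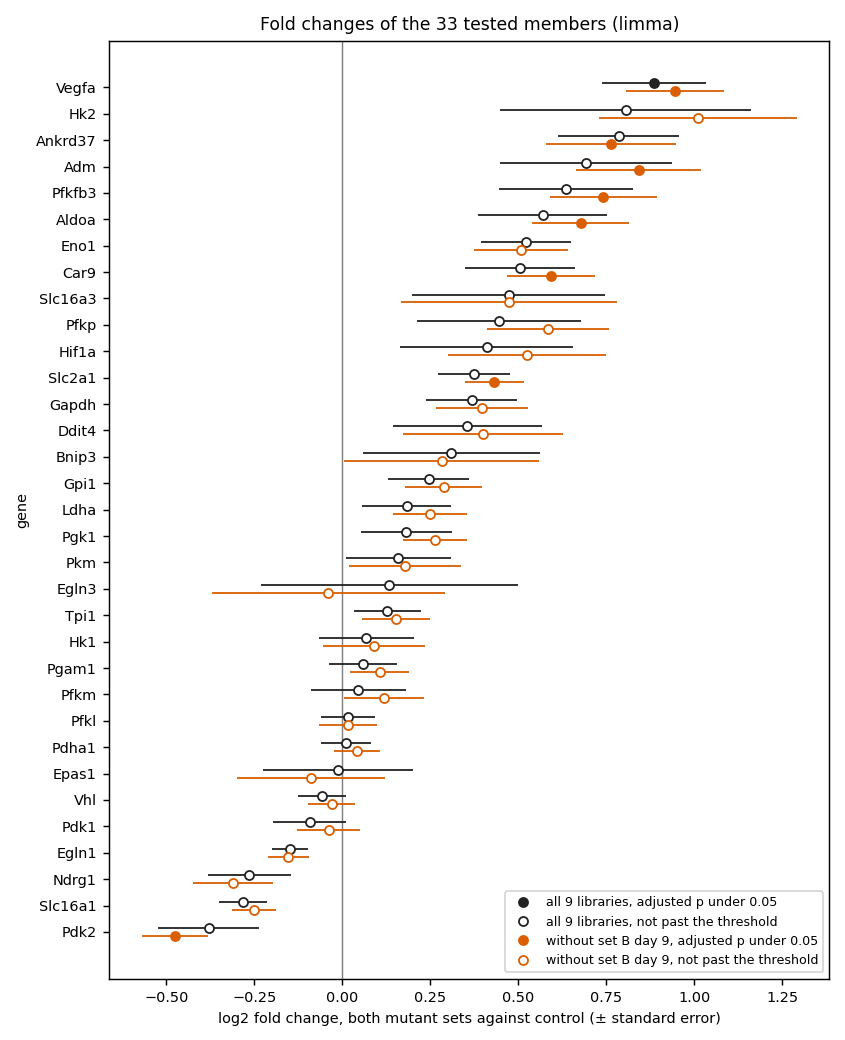
Log2 fold changes (x axis, ± standard error) of the 33 tested genes (y axis), both mutant sets against control, with all 9 libraries in black and without set B day 9 in orange; filled points passed at an adjusted p of 0.05. Vegfa passed in both fits, and 7 further genes passed without that library.

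All 6 mutant libraries lay above all 3 controls for 8 of the 33 genes (24.2%), which 5.19% of all tested genes did. The 8 were Slc2a1, Pfkfb3, Aldoa, Gapdh, Eno1, Vegfa, Car9 and Ankrd37. All 6 lay below for Slc16a1 and Egln1 (6.06%, against 7.37%). Without set B day 9, Hk2 and Adm joined the higher group (10 genes, or 9 without Adm, against 9.9%) and Pdk2 the lower (3 genes, against 10.3%). Once each library was rescaled to the same total, 13 genes, or 12 of 32 without Adm, were higher without overlap (against 7.99%) and only Slc16a1 was lower (against 2.09%). The plot by gene and library shows these values for all 35 genes.

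**Figure D2:**
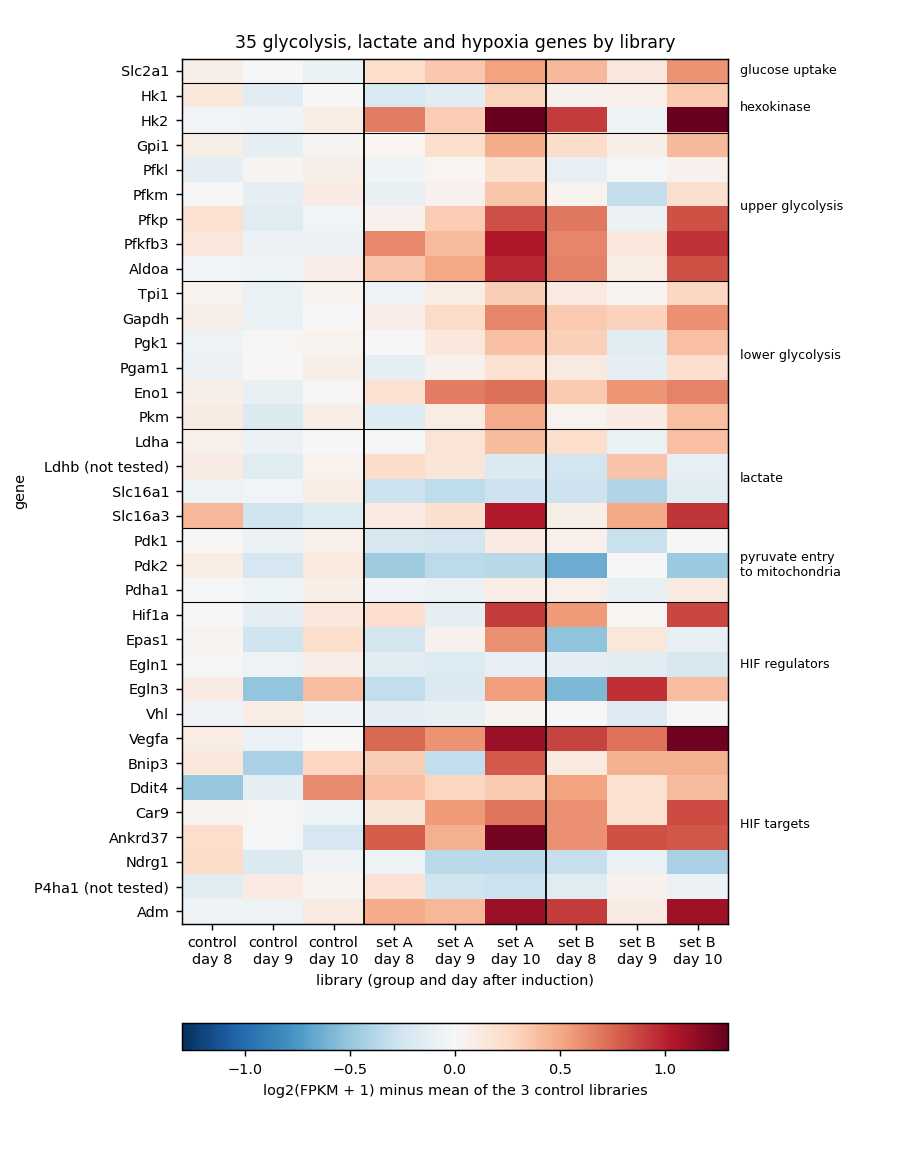
Each cell shows 1 gene (y axis, ordered by role) in 1 library (x axis, group and day) as log2(FPKM + 1) minus the mean of the 3 control libraries, from blue (lower) to red (higher), with lines between groups. The day-10 libraries of both mutant sets are the reddest columns, with medians of 0.48 and 0.40 over the genes.

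Glucose enters these cells in part through Slc2a1, the transporter GLUT1. It read 16.3, 15.4 and 14.5 FPKM in the control libraries of days 8, 9 and 10, 18.2, 19.9 and 22.6 in those of set A and 20.9, 17.2 and 23.5 in those of set B, and the same order of days holds for the values below. Every mutant library was above every control, set B day 9 least so. The fold change of 0.37 ± 0.10 did not pass (adjusted p = 0.104) and passed without that library (0.43 ± 0.084, adjusted p = 0.0269). On this gene alone, a two-sided exact permutation test of 6 against 3 libraries gave p = 0.0238, where 0.0119 is the smallest possible.

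Hexokinases trap glucose by phosphorylating it. Hk2, the inducible form, read 8.63, 8.52 and 9.53 FPKM in the control libraries, 14.7, 11.4 and 28.7 in those of set A and 17.5, 8.42 and 25.3 in those of set B. The day-10 mutant libraries were the highest, and set B day 9 lay below every control. The fold change was 0.80 ± 0.36 with a 95% interval of −0.017 to 1.63 (adjusted p = 0.247), and 1.01 ± 0.28 without set B day 9 (adjusted p = 0.0743). Hk1, the form most tissues keep, ran from 1.70 to 2.90 FPKM and overlapped between groups (0.068 ± 0.14, adjusted p = 0.806).

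Of the 6 genes of upper glycolysis, 0 passed in limma with all 9 libraries (2 at an unadjusted p below 0.05, which 21.0% of all genes had), and 2 rose without set B day 9 (8.22% of all genes passed); all 6 fold changes were above 0, with a median of 0.35. Pfkfb3 makes fructose 2,6-bisphosphate, the activator of phosphofructokinase. It read 4.16, 3.42 and 3.42 FPKM in the control libraries, 6.20, 5.18 and 8.61 in those of set A and 6.22, 4.16 and 7.94 in those of set B. The groups did not overlap, though the highest control and set B day 9 both rounded to 4.16. Its fold change was 0.63 ± 0.19 (adjusted p = 0.125), and 0.74 ± 0.15 without set B day 9 (adjusted p = 0.0304).

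Aldoa encodes the aldolase that splits fructose 1,6-bisphosphate. It read 418, 413 and 456 FPKM in the control libraries, 549, 607 and 847 in those of set A and 677, 458 and 761 in those of set B. Set B day 9 was only just above the highest control, and the other mutant libraries were well clear. The fold change was 0.57 ± 0.18 (adjusted p = 0.142), and 0.68 ± 0.14 without set B day 9 (adjusted p = 0.0299).

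Pfkp, the platelet-type phosphofructokinase subunit, read 62.9, 49.2 and 53.5 FPKM in the control libraries, 57.2, 69.4 and 98.9 in those of set A and 88.9, 52.2 and 98.4 in those of set B. The groups overlapped through set A day 8 and set B day 9 (0.45 ± 0.23, adjusted p = 0.314). Pfkp shares 748 transcript bases with Pitrm1 on the opposite strand, at 20.4 to 26.1 FPKM, and without a stated strand setting reads from the shared stretch cannot be told apart. The other phosphofructokinase subunits Pfkl and Pfkm, and Gpi1, which converts glucose 6-phosphate to fructose 6-phosphate, overlapped between groups, with fold changes of 0.02, 0.05 and 0.24.

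Of the 6 genes of lower glycolysis, 0 passed in limma in either fit (2 at an unadjusted p below 0.05 with all 9 libraries, against 21.0% of all genes), and their fold changes were all above 0, with a median of 0.17. Gapdh, the dehydrogenase of glyceraldehyde 3-phosphate, read 1721, 1539.7 and 1640.4 FPKM in the control libraries, 1731, 1944 and 2541 in those of set A and 2059, 2005 and 2468 in those of set B. Set A day 8, at 1731, was just above the highest control, at 1721, and the groups did not overlap (0.37 ± 0.13, adjusted p = 0.161). Gapdh is often used as a reference gene, and its level spanned 1539.7 to 2541 FPKM over these 9 libraries.

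Eno1, the main enolase, read 310.1, 275 and 296 FPKM in the control libraries, 336, 466 and 481 in those of set A and 370.4, 439 and 459 in those of set B. The groups did not overlap, and the fold change of 0.52 ± 0.13 missed the threshold (adjusted p = 0.0827). Its near-copy Eno1b, 99.5% identical over 1736 bases, read 64.7 to 80.8 FPKM in control but 4.08 in set A day 9 and 0.836 in set B day 9, against 78.7 to 114 in the other 4 mutant libraries. Reads of these genes may be split between them, so their sum is given too. Control libraries summed to 391, 339 and 372, those of set A to 415, 470.0 and 595, and those of set B to 453, 439 and 570, so the groups still did not overlap. The mutant mean of the sum was 1.33 times the control mean. The fold change and its p-value are of Eno1 alone, and the sum was not tested.

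Pkm, the pyruvate kinase gene of the last step, read 422, 345 and 413 FPKM in the control libraries, 348, 419 and 547 in those of set A and 405, 422 and 512 in those of set B. Only the day-10 mutant libraries were clearly above control (0.16 ± 0.15, 95% interval −0.18 to 0.50, adjusted p = 0.575). Tpi1, Pgk1 and Pgam1, which handle the 3-carbon sugars between aldolase and enolase, overlapped as well, with fold changes of 0.13, 0.18 and 0.06.

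**Figure D3:**
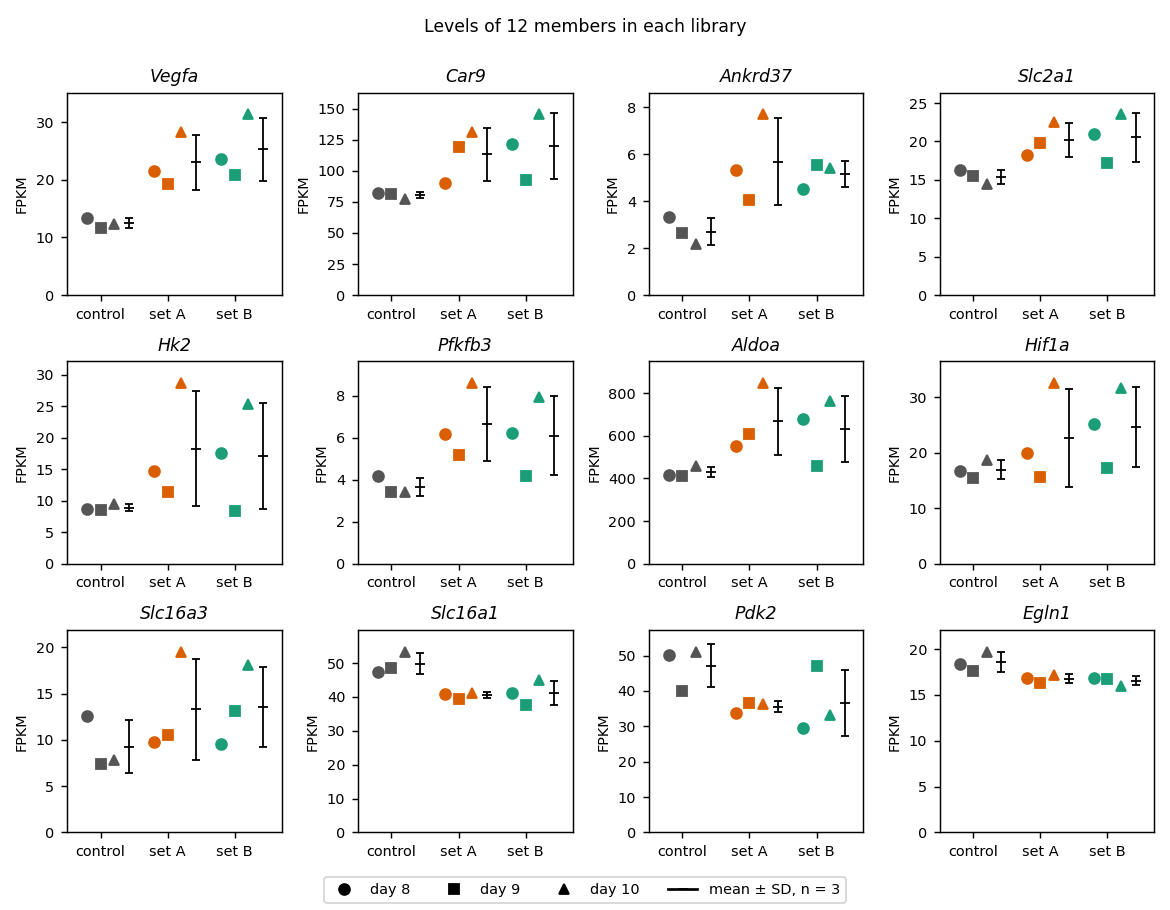
FPKM (y axis, from 0) of 12 genes in each library (points; shape gives the day) by group (x axis), with the mean ± SD of the 3 libraries beside each group. Vegfa separates fully, at 19.2 to 31.4 FPKM in the mutants against 11.6 to 13.4 in control, while Slc16a1 and Egln1 lie lower in all 6 mutant libraries.

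On the lactate side the genes went in different directions. Ldha, whose subunit favours making lactate from pyruvate, read 908, 824 and 874 FPKM in the control libraries, 850.3, 982 and 1153 in those of set A and 1020.3, 816 and 1139 in those of set B. Set A day 8 lay within the control range and set B day 9 below it (0.18 ± 0.13, 95% interval −0.11 to 0.47, adjusted p = 0.449). Ldhb, whose subunit favours the reverse reaction, stayed at 0.102 to 0.693 FPKM and was not tested.

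Slc16a1 encodes MCT1, a monocarboxylate transporter that carries lactate and the butyrate of gut bacteria. It read 47.5, 48.7 and 53.4 FPKM in the control libraries, 40.9, 39.5 and 41.1 in those of set A and 41.1, 37.6 and 44.9 in those of set B. All 6 mutant libraries lay below every control (p = 0.0119 in the two-sided exact permutation test, its floor), a pattern that 7.37% of all tested genes had. The fold change of −0.28 ± 0.068 missed the threshold over all genes (adjusted p = 0.0827, and 0.0508 without set B day 9).

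Slc16a3 encodes MCT4, a transporter of lactate-exporting cells. It read 12.5, 7.40 and 7.84 FPKM in the control libraries, 9.78, 10.5 and 19.5 in those of set A and 9.53, 13.1 and 18.1 in those of set B. The control of day 8 lay above set A days 8 and 9 and set B day 8, so the groups overlapped (0.47 ± 0.27, adjusted p = 0.365).

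Entry of pyruvate into mitochondrial oxidation is gated by pyruvate dehydrogenase, which the Pdk kinases switch off. Pdk2 read 50.1, 40.1 and 51.1 FPKM in the control libraries, 33.7, 36.7 and 36.3 in those of set A and 29.5, 47.1 and 33.2 in those of set B. In 5 mutant libraries it was below every control, and set B day 9 was among the controls. The fold change was −0.38 ± 0.14 (adjusted p = 0.184), and Pdk2 fell by 0.48 without that library (adjusted p = 0.0280).

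Pdk1, the family member best known as a HIF target, read 13.1, 12.3 and 13.6 FPKM in the control libraries, 11.1, 10.9 and 14.0 in those of set A and 13.7, 10.4 and 13.0 in those of set B. It overlapped fully (−0.092 ± 0.10, 95% interval −0.33 to 0.15, adjusted p = 0.647). Pdha1, a subunit of the dehydrogenase itself, ran from 109 to 127 FPKM (0.0100 ± 0.071).

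Of the 5 regulators of the HIF pathway, 0 passed in limma in either fit (1 at an unadjusted p below 0.05 with all 9 libraries, against 21.0% of all genes), and their median fold change was −0.012. Hif1a, the alpha subunit of HIF-1, read 16.8, 15.4 and 18.7 FPKM in the control libraries, 19.9, 15.6 and 32.5 in those of set A and 25.2, 17.2 and 31.6 in those of set B. Day-10 mutant libraries were the highest, and both day-9 mutant libraries were within the control range (0.41 ± 0.25, 95% interval −0.16 to 0.98, adjusted p = 0.378). HIF-1 is controlled mainly at the protein level, which these data do not measure.

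Epas1, which encodes HIF-2α, read 9.01, 7.19 and 10.5 FPKM in the control libraries, 7.32, 9.15 and 13.8 in those of set A and 5.81, 9.87 and 8.09 in those of set B, with the groups mixed (−0.012 ± 0.21, adjusted p = 0.982). Egln1, the main oxygen-sensing prolyl hydroxylase PHD2, read 18.4, 17.6 and 19.7 FPKM in control and 16.0 to 17.2 in the mutants. All 6 mutant libraries were lower, by a small margin (−0.15 ± 0.052, adjusted p = 0.162), and the groups overlapped once libraries were rescaled to equal totals. Egln3, the inducible hydroxylase PHD3, read 6.04, 3.61 and 7.68 FPKM in the control libraries, 4.26, 4.75 and 8.55 in those of set A and 3.36, 11.6 and 7.67 in those of set B. The groups overlapped, and set B day 9 was the highest (0.13 ± 0.36, adjusted p = 0.865). Vhl, which marks hydroxylated HIF for destruction, ran from 6.69 to 8.23 FPKM (−0.059 ± 0.069).

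The 7 tested HIF targets had a median of 0.51 on the log2 scale, and the 6 without Adm one of 0.43. With all 9 libraries 1 of the 7 rose (1.16% of all genes passed). Without set B day 9, 4 of the 7 rose, or 3 of the 6 without Adm (8.22% of all genes passed). Vegfa encodes VEGF-A, the growth factor that draws new vessels towards tissue short of oxygen. It read 13.4, 11.6 and 12.4 FPKM in the control libraries (mean 12.5 ± 0.866 SD, n = 3), 21.5, 19.2 and 28.3 in those of set A (23.0 ± 4.75, n = 3) and 23.6, 20.9 and 31.4 in those of set B (25.3 ± 5.42, n = 3). The lowest mutant library was well above the highest control, and set B day 9 lay with the other mutants. Vegfa rose by 0.88 ± 0.15 (95% interval 0.55 to 1.22, adjusted p = 0.0417), and by 0.95 ± 0.14 without set B day 9 (adjusted p = 0.0140). Leaving out the libraries in turn kept the call in 1 of 9 fits, with adjusted p from 0.014 to 0.166, and the fold change stayed between 0.80 and 0.95.

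Car9, a membrane carbonic anhydrase that exports acid, read 82.6, 81.8 and 77.7 FPKM in the control libraries, 89.9, 119 and 131 in those of set A and 122, 92.5 and 146 in those of set B. Every mutant library was higher, set A day 8 and set B day 9 least (0.51 ± 0.16, adjusted p = 0.131; without set B day 9 0.59 ± 0.13, adjusted p = 0.0326). Ankrd37, a small ankyrin-repeat protein, read 3.31, 2.63 and 2.16 FPKM in the control libraries, 5.32, 4.04 and 7.70 in those of set A and 4.52, 5.53 and 5.40 in those of set B. The groups did not overlap, and the mutant mean was 2.01 times the control mean (0.79 ± 0.17, adjusted p = 0.0698; 0.76 ± 0.18 and 0.0477 without set B day 9). Ankrd37 shares 57 transcript bases with Ufsp2 on the opposite strand, at 25.9 to 34.7 FPKM.

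Adm, the vasodilator peptide adrenomedullin, read 0.348, 0.326 and 0.504 FPKM in the control libraries, 0.944, 0.875 and 2.03 in those of set A and 1.61, 0.495 and 1.98 in those of set B. It was low everywhere, and set B day 9 was within the control range (0.69 ± 0.24, adjusted p = 0.164; 0.84 ± 0.18 and 0.0327 without it). Ndrg1, a stress- and differentiation-linked gene, read 38.4, 28.3 and 31.5 FPKM in the control libraries, 30.9, 25.3 and 25.2 in those of set A and 26.1, 30.5 and 24.0 in those of set B. It was below every control in 4 of 6 mutant libraries (−0.26 ± 0.12, adjusted p = 0.247). Bnip3, a mitophagy receptor, and Ddit4, an inhibitor of mTORC1, overlapped between groups, with fold changes of 0.31 and 0.35.

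The day-10 mutant libraries read highest for many of these genes. Both lay above all other 7 libraries for 20 of the 33 genes (60.6%), which 14.3% of all tested genes did, and without Adm for 19 of 32. Ndrg1 alone lay below in both, where 9.02% of all genes did. This pattern was chosen after the values were seen. With libraries rescaled to equal totals it held for 11 of the 33, or 10 of 32 without Adm (against 3.61%), and Slc16a1, Egln1 and Ndrg1 lay below in both (3 of 33, against 20.8%). The median over the genes was 0.48 in set A day 10 and 0.40 in set B day 10, against 0.01 to 0.13 in the other 4 mutant libraries. A linear slope over days, common to the groups, passed for 0 of the 33 genes in limma, with 2 at an unadjusted p below 0.05 (Pfkl and Epas1; 6.06%, against 3.22% of all genes). The slope in the mutants minus that in control, a fit added after seeing the data, also passed for 0, with 2 at an unadjusted p below 0.05 (Ddit4 and Slc16a3; 6.06%, against 5.75% of all genes, so near the background). There is 1 library per group and day.

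**Figure D4:**
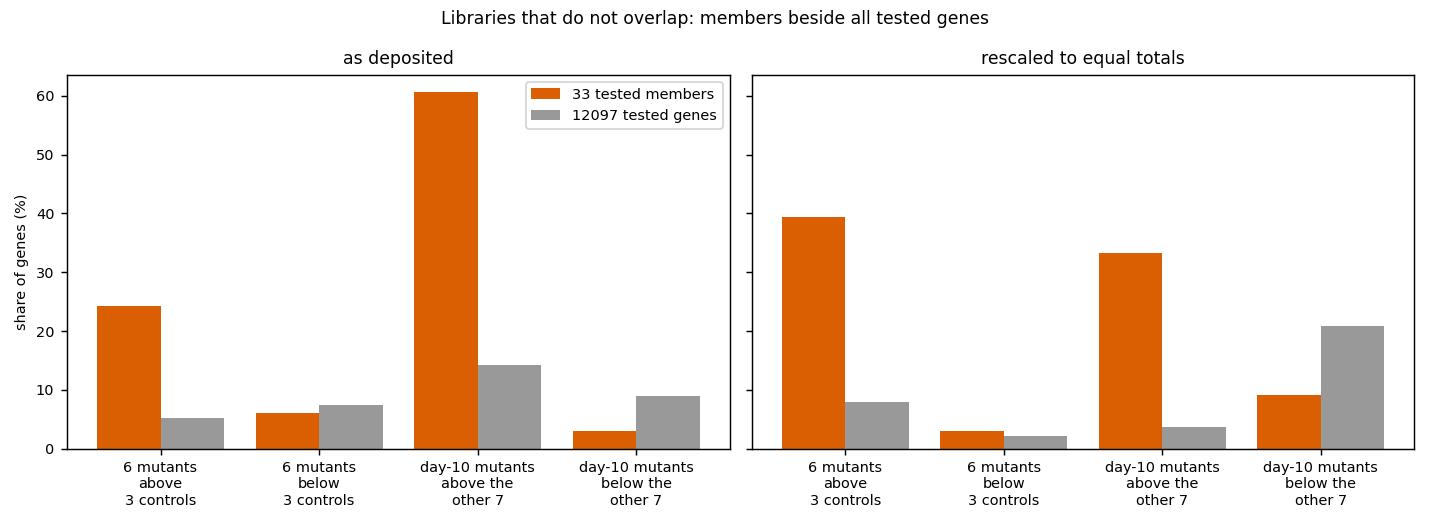
Share of genes (y axis, %) whose libraries do not overlap in 4 ways (x axis), for the 33 tested genes (orange) and all 12097 tested genes (grey), as deposited (left) and rescaled to equal totals (right). Both day-10 mutants were above the other 7 libraries for 60.6% of the former and 14.3% of the latter as deposited, and for 33.3% and 3.61% after rescaling.

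Taken singly, neither set gave a passing gene. Set A against control had 0 of 33 (0.215% of all genes passed, limma), with 11 at an unadjusted p below 0.05 (33.3%, against 16.7% of all genes; without set B day 9 in the fit also 0, against 1.03%), and set B against control had 0 of 33 (0.628% of all genes), also with 11 (against 16.5% of all genes). Adm was among the 11 in each set. Without set B day 9, set B gave 4 (Vegfa, Slc2a1 and Car9 higher, Pdk2 lower, against 3.94% of all genes). These comparisons share the 3 controls. Vegfa differed from control by 0.82 in set A and 0.95 in set B. Set B minus set A gave 0 of 33 genes and 0 of all genes (0.0%, limma), with 0 of the 33 and 376 of all genes at an unadjusted p below 0.05. The intervals remained wide: 0.13 for Vegfa (95% interval −0.26 to 0.52), −0.11 for Hk2 (−1.06 to 0.84) and 0.14 for Hif1a (−0.51 to 0.80).

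Genes outside the 35 were read from fixed lists of the same pathways. Of 7 tested glucose transporters and hexokinases, 14 other glycolysis genes, 6 gluconeogenesis genes, 8 pentose phosphate genes, 12 genes of the HIF machinery and 4 of the VEGF family, 0 passed in limma with all 9 libraries, while 0, 2, 2, 2, 3 and 0 of them had an unadjusted p below 0.05. Over the 93 distinct genes of all 8 lists, 20.4% had such a p, near the 21.0% of all tested genes. Pooled in this way, with all 9 libraries, the lists did not stand above the background, though the shares differed between lists. By the naming rule, their smallest unadjusted p-values belonged to Hkdc1 and Slc2a2, Pfkfb4 (0.65) and Aldoc (0.83), Pck1 (−1.80) and Fbp1 (−0.89), H6pd (1.11) and G6pdx (0.31), Cited2 and Hsp90aa1, and Vegfc and Angptl4. Of 15 pyruvate and lactate genes, Pdp2, a phosphatase that reactivates pyruvate dehydrogenase, fell by 0.37 (adjusted p = 0.0426). In this fit 1.16% of all genes passed in either direction. Of 29 other HIF targets, only Tfrc, the transferrin receptor, passed, and it fell by 0.48 (adjusted p = 0.0239). Yet 22 of these 29 had a fold change above 0 (49.7% of all genes did), with a median of 0.11. In limma 9 of the 29 had an unadjusted p below 0.05, where 21.0% of all genes had. The pyruvate and lactate genes had 2 of 15. Summed FPKM of the other HIF targets ran from 864 to 923 in control and from 964 to 1203 in the mutants. Without set B day 9, 12 of the 93 distinct genes passed (12.9%, against 8.22% of all genes). Pdp2 and Tfrc were among them, and of the rest Pfkfb4, Aldoc, H6pd, G6pdx, Ldhd, Ero1l, Hmox1 and Mif rose and Pck1 and Fbp1 fell, Pck1 by 2.09.

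Markers of other cells were read in the same libraries, and of these cell types only Paneth cells had genes that passed with all 9. Paneth cell markers summed to 39979 to 65463 FPKM in control and 10351 to 24894 in the mutants. In limma with all 9 libraries 4 of the 6 fell, where 1.16% of all genes passed in either direction. The 10 dissociation stress genes summed to 151 to 167 against 208 to 240, without overlap, and of the 8 tested Junb and Ier3 rose in the same fit. T cell markers summed to 43.7 to 75.6 in control to 43.4 to 63.0 in the 4 mutant libraries of days 8 and 9, and to 17.4 in each day-10 mutant library. Fibroblast markers summed to at most 0.117 in control and to 0.242 to 6.64 in the mutants, and macrophage markers to 4.62 to 4.91 against 3.96 to 13.8. Red blood cell markers summed to 3.89 to 7.04 against 1.57 to 39.6, and enterocyte markers to 2823 to 6298 against 2111 to 7346. The T cell, macrophage, red blood cell and enterocyte sums overlapped between groups, as did those of smooth muscle and neutrophil markers. The part of these cells in the results was not tested.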

How the data were processed

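Poly(A) RNA was sequenced as paired ends, per the labels' protocols, in 3 control libraries and 2 sets of 3 mutant libraries. The authors deposited 1 table of FPKM with 24930 gene symbols. No source used here names this unit, which was inferred from non-whole values and unequal column sums. Every library has a median ratio of 1.00276 to the mean library over 15138 genes, so the deposited values had already been scaled between libraries to equal medians. Rescaling to equal totals replaces that scaling with one that depends more on the most abundant transcripts. The authors named kallisto 0.46.1, DESeq2 1.40.1 and mm9, per the submitters' processing notes, without a role for each. Annotation, strand setting and filters are not stated there. Summed FPKM and a rough estimate of the fragments behind 1 FPKM are given with the results. The estimate depends on a preset window of low values, so it does not settle the precision of low genes.

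Samples were grouped by title. Limma 3.58.1 in R 4.3.3 was run on log2(FPKM + 1) with trend and robust options, for genes that reached 1 FPKM in 3 or more libraries. All 9 libraries shared 1 spread, with Benjamini-Hochberg adjustment over all 12097 genes at a threshold of 0.05. The fit was checked on simulated data. Single genes had a two-sided exact permutation test, 6 against 3 libraries. The members and lists were chosen with earlier results of these data known. All 35 members are named, with values by library for those past the threshold in either fit and for a fixed list. Eno1, Gapdh, Egln1 and the promoters shown were given in full after their values were seen. From each other list, up to 3 passing genes, or the 2 with the smallest p, are named. Genes that passed without set B day 9 are named besides.

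Near-copies were found with blastn 2.17.0 (at least 95% identity over at least 300 bases) in GENCODE M21 transcripts, used only for names and identity. Promoter windows are from RefSeq, GRCm38.p6. The alternatives were a pseudocount of 0.1, no filter, a filter at 5 FPKM, library weights, equal totals, a block for day, fits restricted to the compared groups, and each library omitted in turn. Every sample column was used.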

Additional observations from a re-analysis of the deposited data

How the results depend on the processing

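The single call, Vegfa in both sets against control, was lost in 9 of its 15 alternatives: 8 of 9 fits with 1 library left out, and no filter. Values of single genes gained a call 34 times and changed sign 22 times, out of 744, nearly all of them uncalled to begin with. The cause of these shifts was not tested. For both sets against control, genes called among the 33 numbered 1 with all libraries, 0 with no filter (Vegfa adjusted p = 0.0597), 2 after rescaling and 10 with library weights, and 0 to 8 when 1 library was left out. Adm was among the 10 and among the 8. Over all genes the count was 140, then 80 with no filter, 1438 with weights and 17 to 994 with 1 library left out. Rescaling called 133 genes higher and 36 lower, against 62 and 78 as deposited, and moved the median of all genes by less than 0.1.

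For set A, 1 of the 33 (Vegfa) was called after rescaling, beside 28 of all genes, and all genes numbered 44 with weights and 3 to 124 with 1 library left out, against 26. For set B, 1 of the 33 (Vegfa) was called after rescaling, beside 63 of all genes, 13 with weights and 0 to 4 with 1 library left out, and all genes numbered 2035 with weights, 48 with the compared groups alone and 18 to 477 with 1 library left out, against 76. Adm was among the 13. For set B minus set A, 2 genes were called with a pseudocount of 0.1, 3 with weights and 0 to 1 with 1 library left out, none of them among the 33. For the slope in the mutants minus that in control, which was added after seeing the data, weights called 2 of the 33 (Slc16a3 higher, Ddit4 lower) and 86 genes, and leaving out 1 library called 0 to 2.

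The day was not treated as a pairing: correlations of same-day deviations ran from −0.236 to 0.615, and not all exceeded 0.1. With the day as a replicate block, both sets against control gave 1 of the 33 (Vegfa) and 97 genes, set A 0 of the 33 and 16 genes, and set B 1 of the 33 (Vegfa) and 63 genes.

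Signs turned for Pfkl (−0.034 with weights, −0.040 to 0.053 with 1 library left out), Epas1 (0.026 after rescaling, −0.14 to 0.10) and Egln3 (−0.14 with weights, −0.12 to 0.34). With 1 library left out they also turned for Hk1 (−0.0092 to 0.14), Pdha1 (−0.017 to 0.050) and Pfkm (−0.018 to 0.12), none of which passed a test. Eno1, taken without its near-copy Eno1b, was called without the day-8 library of set A. A group of 3 libraries, 1 per day, limits what these fits can detect, and Adm, Ldhb and P4ha1 rest on few fragments.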

Other observations

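Eno1b stood at 4.08 and 0.836 FPKM in the day-9 libraries of sets A and B, and at 64.7 to 114 FPKM in the other 7 libraries, day 9 of control included. No other near-copy found for the 35 genes varied between libraries to this extent among those above 1 FPKM. Eno1 and Eno1b summed gave 470.0 and 439 FPKM in those day-9 libraries.

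Of sugar handling genes outside the 35, Pck1 and Slc2a2 are described here, and neither passed with all 9 libraries. Pck1, the gluconeogenic enzyme that makes phosphoenolpyruvate, was lower by 1.80 on the log2 scale with all 9 libraries (adjusted p = 0.0983, limma). Slc2a2, the transporter GLUT2, ran from 19.8 to 63.9 FPKM in control and from 7.48 to 59.1 in the mutants, with its highest mutant value in set B day 9 (adjusted p = 0.434, limma).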
